A study of Mus musculus with 6 samples.

Results

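The genes described here are the nucleic acid sensors and adaptors of innate immunity: the RNA helicases Ddx58, Ifih1 and Dhx58, the endosomal receptors Tlr3 and Tlr9, the Z-nucleic acid sensor Zbp1, the kinase Eif2ak2, and the adaptors Tmem173, Mavs and Myd88. They were taken by gene symbol from the annotation of the array, where 13 of 55681 probes carry one of these 10 names. All 10 genes were bright enough to be tested. Sensors bind viral or misplaced cellular RNA and DNA, and adaptors pass the signal to kinases and to the transcription factors of type I interferon. Several of the sensors are themselves interferon-stimulated genes, so that a fibroblast that has met interferon carries more of them.

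The samples were 3T3 cells, a fibroblast line established from mouse embryos, and carried no genetic change that the labels name. Cells were treated at 50 nM for 48 h with GapmeR Ntep, a DNA-centered antisense oligonucleotide that directs RNase H to the long noncoding RNA Ntep, or with GapmeR control, so that both groups had received an oligonucleotide and no untreated cells were arrayed. Both GapmeRs were used side by side in 3 independent experiments, and the 6 RNA samples were hybridised to 6 Agilent arrays in 1 color on 1 slide. Without untreated cells, it cannot be told apart which GapmeR moved a gene away from its usual level.

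Per array, 43.7% to 53.3% of probes were well above background by the scanner software, and no probe was saturated. The probe for Ntep itself, named A630089N07Rik in the files, gave 469.8, 91.23 and 225.6 on the arrays labelled GapmeR Ntep (experiments 1, 2 and 3) and 270.5, 271.5 and 359.9 on the GapmeR control arrays (log2 -0.48, SE 0.58, limma adjusted p = 0.632). It was higher under GapmeR Ntep in experiment 1, against the label, so every direction below is that of the label. The 10 fibroblast markers were well above background on every array. Markers of other cell types were mixed. The macrophage markers Emr1, Fcgr1, Mrc1 and Ptprc and the B cell markers Cd79a, Cd79b and Ms4a1 were not well above background on any array. By their brightest probes, Cd68, Csf1r and Itgam of the macrophage list and Siglech, Cd22 and Tcf4 of the B cell and plasmacytoid dendritic cell list were on every array. The other Siglech and Cd22 probes were not well above background on any array, so the probes of these genes disagree.

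Probe sequences are shown for the 3 genes that had 2 probes each, because agreement between separate stretches of a transcript bears on how a signal is read. Each line gives 30 bases of the 60-base probe, with a polyadenylation signal (AATAAA or ATTAAA) in capitals where a search of the probe found one. Coordinates (mm9) were read from the array files, where all of these genes are on the minus strand, and where the probes lie within exons or UTRs was not analysed here.
Ddx58, brighter probe, chr4:40151893-40151952: ctctagctattttcAATAAAggctcatgtt
Ddx58, dimmer probe, chr4:40151133-40151192: aattcttagtgcAATAAAatgaatttgccg
Ifih1, brighter probe, chr2:62435507-62435566: aactgcaagctacAATAAAtcatttcttcc
Ifih1, dimmer probe, chr2:62434960-62435019: ctacgcattatagcagctgttttgtatgcc
Zbp1, brighter probe, chr2:173039307-173039366: ttgcttctgcctATTAAAttctgggattaa
Zbp1, dimmer probe, chr2:173032258-173032317: caaccaggggatgaggatggtgcatgggga
The starts of the paired probes lie 760 bases apart for Ddx58, 547 for Ifih1 and 7049 for Zbp1, and the dimmer probe is the more downstream one in each case. A polyadenylation signal was found in 6 of the 13 probes, against 13.7% of all probes.

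RefSeq promoter windows (GRCm38.p6, from 250 bases before the transcription start to 50 after it) were given for Ddx58, Ifih1, Tlr3, Tlr9, Eif2ak2, Mavs and Myd88. They were searched on both strands for GAAANNGAA, the core of the interferon-stimulated response element, and for TTCNNNGAA, the gamma-activated site, which reads the same on both strands. The core stood in 4 of the 7 windows and in 8.56% of all 32851 windows, and the gamma-activated site in 2 of the 7 and in 8.3% of all. Below are 30 bases around each separate match to the core, in the direction of the gene (all on the minus strand), with the match in capitals.
Ifih1, 112 bases before the start, chr2:62646348-62646377: agaattcgcgTTCCCTTTCctgtttctcac
Ifih1, 32 bases after the start, chr2:62646206-62646235: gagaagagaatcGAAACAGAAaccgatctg
Ddx58, 3 bases after the start, chr4:40239803-40239832: ctgaggcagtTTCGATTTCctatggccagc
Eif2ak2, 18 bases after the start, chr17:78882535-78882564: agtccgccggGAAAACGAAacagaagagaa
Myd88, 40 bases before the start, chr9:119340039-119340068: gagcttctcgGAAAGCGAAagaaggagggg
The upstream match of Ifih1 and that of Ddx58 are on the opposite strand. Eif2ak2 holds another match that overlaps the printed one, 24 bases after its start, and a gamma-activated site 178 bases before it, and in Myd88 a gamma-activated site 46 bases before the start overlaps the core. These letters were not found in the windows of Tlr3, Tlr9 and Mavs, which says nothing on the factors that act there.

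Zbp1, Ifih1 and Eif2ak2 fell 10.9-fold, 4.36-fold and 3.18-fold under GapmeR Ntep (n = 3 arrays per group). Tlr3 fell 16-fold, or 4.86-fold with another background correction. The helicase Ddx58, the adaptors Tmem173, Mavs and Myd88 and the DNA receptor Tlr9 passed neither of the rules used here. The test was limma, which compares log2 signals and shares the estimate of spread across probes. With Benjamini-Hochberg adjustment over 30932 tested probes, 4 of the 10 genes had an adjusted p under 0.05: Zbp1, Ifih1, Eif2ak2 and Tlr3. Over all tested probes 3.25% were lower and 2.1% higher by that rule. By a second rule, a change of 2-fold or more with an unadjusted p under 0.01 (the limits of the study's own gene list, called the fold change rule below), Dhx58 fell as well, giving 5 of 10 genes against 5.06% lower and 3.08% higher over all tested probes. No gene of the 10 rose by either rule, and 0 were higher at an unadjusted p under 0.05, against 7 lower, where 12.5% of all tested probes were higher and 12.6% lower. In 7 of 10 genes every GapmeR Ntep array lay below every GapmeR control array, which was so for 15.1% of tested probes. The median log2 difference of the 10 genes was -1.44, against 0.06 over all tested probes. The 10 genes were chosen with earlier results of these data known, so these contrasts do not test them as a group. The adjusted calls depended on which arrays were kept. Without GapmeR Ntep replicate 2 the 4 genes remained and Ddx58 joined them, and without GapmeR Ntep replicate 1 Ifih1, Tlr3 and Zbp1 remained. Without GapmeR control replicate 1, 2 or 3, or without GapmeR Ntep replicate 3, limma called 0 of the 10 after adjustment, and over all probes it called 145, 0, 5 and 0. In these fits 7, 6, 6 and 6 of the 10 were lower at an unadjusted p under 0.05, against 13.3%, 8.94%, 9.54% and 10.0% of all tested probes.

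**Figure D1:**
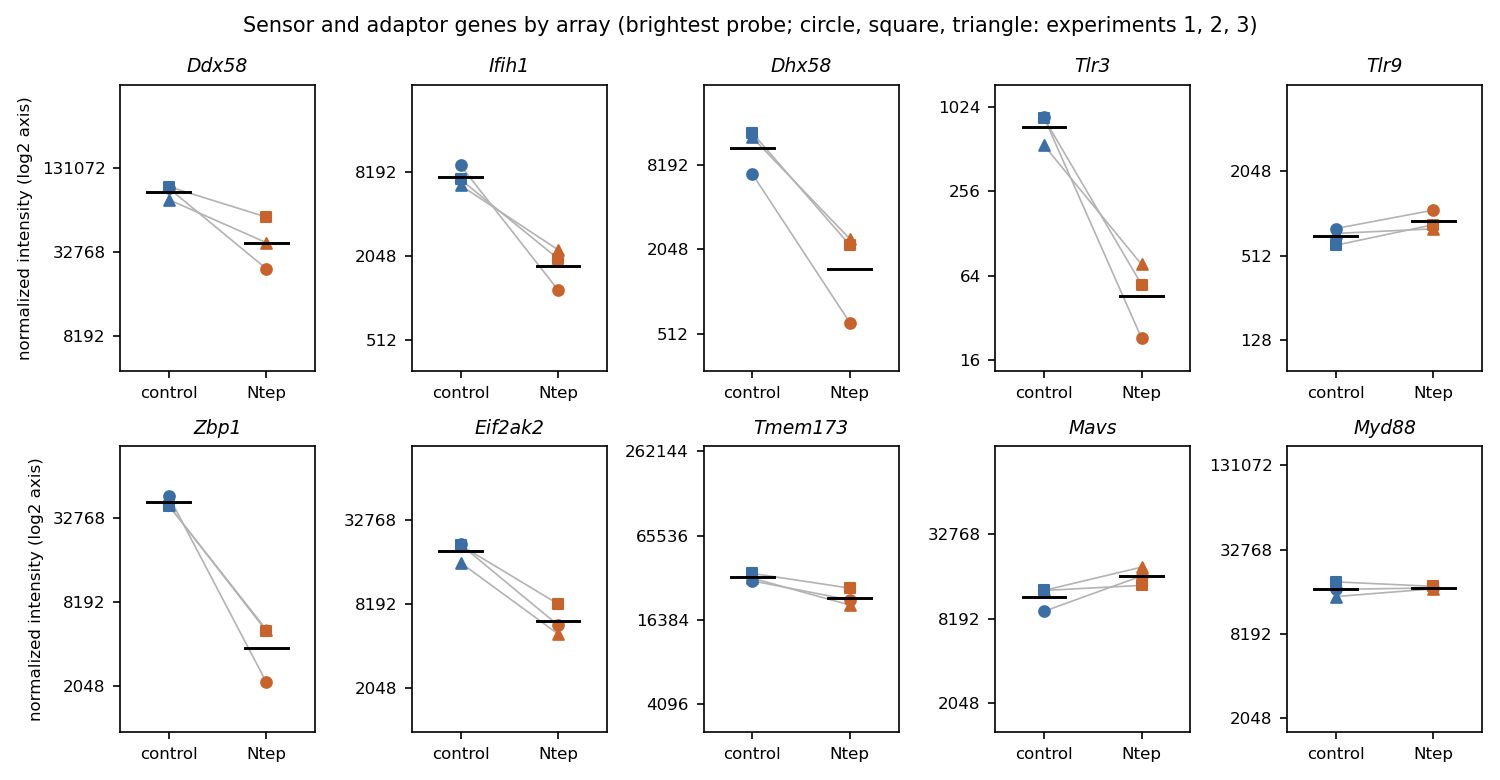
Normalized intensity of each gene by its brightest probe on the 6 arrays (log2 axis of equal span in each panel), with GapmeR control in blue, GapmeR Ntep in orange, lines joining the arrays of an experiment and black bars at the mean of log2 values. The groups are apart for Ddx58, Ifih1, Dhx58, Tlr3, Zbp1, Eif2ak2 and Tmem173, with GapmeR Ntep lower, and for Mavs, with GapmeR Ntep higher.

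Among the cytosolic RNA helicases, Ifih1 (MDA5, which binds long double-stranded RNA) gave signals of 1173, 1962 and 2271 on the GapmeR Ntep arrays of experiments 1, 2 and 3 and 9103, 7231 and 6564 on the GapmeR control arrays. The groups did not overlap, and the lowest control array was 2.89 times the highest GapmeR Ntep array. Ifih1 fell 4.36-fold (log2 -2.12, SE 0.30, limma adjusted p = 0.0282). Its dimmer probe was at the floor of 20 on all GapmeR Ntep arrays, well above background on 0 of 3, and at 81.25, 68.28 and 81.91 on the control arrays, well above background on 3 of 3. Set against the dimmest signals still well above background, that probe was at least 1.56-fold lower, a bound that was not tested. The floored values (means of 20 and 77.15) gave a limma adjusted p of 0.0155. The floor left the GapmeR Ntep arrays no spread, so this p does not measure it.

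Ddx58 (RIG-I, which binds short RNA with a 5′ triphosphate) gave 24850, 58190 and 38190 on the GapmeR Ntep arrays against 93430, 95880 and 77470 on the control arrays by its brighter probe. Its dimmer probe gave 201.7, 416.2 and 737.2 against 1091, 949.4 and 1372. Neither pair of groups overlapped, yet the GapmeR Ntep arrays were spread more than 2-fold among themselves, and Ddx58 did not pass. The log2 difference was -1.22 (SE 0.33, limma adjusted p = 0.0882) by the brighter and -1.51 (SE 0.48, adjusted p = 0.123) by the dimmer probe, so both probes put it on the same side.

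Dhx58 (LGP2, which lacks the signaling domain of the other helicases and modulates them) gave 615, 2201 and 2439 against 7105, 13950 and 12950. Experiment 1 had the lowest signal of both groups, so that the arrays of an experiment moved together, and the groups stayed apart. The difference of 7.3-fold (log2 -2.87, SE 0.59, unadjusted p = 0.00282) passed the fold change rule, and the limma adjusted p was 0.0511. With the experiments as blocks it passed after adjustment too (adjusted p = 0.0311), which takes the count of genes called from 4 to 5. The fit with blocks called 7.31% of all tested probes lower, against 3.25% without blocks.

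Of the endosomal receptors, Tlr3, which binds double-stranded RNA and signals through Ticam1, was the only gene of the 10 whose brightest probe was not well above background on every array. Its signals were 22.92, 55.25 and 76.95 on the GapmeR Ntep arrays against 863.7, 853.4 and 546 on the control arrays. The control arrays were thus at least 7.1 times any GapmeR Ntep array. Tlr3 fell 16-fold (log2 -4.00, SE 0.48, limma adjusted p = 0.0243), from a signal well above background on 3 of 3 control arrays to one well above it on 1 of 3 GapmeR Ntep arrays. The size of this fall depended on the background correction: with normexp and an offset of 50 it was 4.86-fold (log2 -2.28, adjusted p = 0.0111), smaller than those of Zbp1 (11.2-fold) and Dhx58 (6.73-fold) in the same fit. Tlr9, which binds unmethylated CpG DNA and signals through Myd88, gave 1082, 851.4 and 795.9 against 799.5, 607.2 and 737.7. The groups overlapped, and Tlr9 did not pass (log2 0.35, SE 0.21, limma adjusted p = 0.349).

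Zbp1, which senses left-handed nucleic acid and engages Ripk3, gave 2198, 5096 and 5212 on the GapmeR Ntep arrays against 46770, 40180 and 40220 on the control arrays. By the brightest probes, no other gene of the 10 had so small an adjusted p (log2 -3.45, SE 0.37, limma adjusted p = 0.0221), with a fall of 10.9-fold. The dimmer probe, which the files assign to another transcript record of the gene, gave 183.2, 590.3 and 550.1 against 2535, 6119 and 4556. It fell by nearly the same factor, 10.6-fold (log2 -3.41, SE 0.56, limma adjusted p = 0.0337), although the probes lie far apart in the gene.

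Eif2ak2 (PKR, which halts translation through phosphorylation of eIF2α when it binds double-stranded RNA) gave 5776, 8196 and 4997 against 21810, 21540 and 16160. It fell 3.18-fold (log2 -1.67, SE 0.25, limma adjusted p = 0.0301). The 3 experiments were closest together for this gene among the 4 called after adjustment, at log2 differences of -1.92, -1.39 and -1.69.

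Of the adaptors, Tmem173 (STING, the receptor for the cyclic dinucleotide made by cGAS) gave 22780, 27650 and 20940 against 31150, 35240 and 32590. The groups did not overlap, but the difference was small (log2 -0.48, SE 0.18, limma adjusted p = 0.167). Mavs, the mitochondrial adaptor of Ddx58 and Ifih1, gave 16500, 14150 and 19100 against 9239, 13010 and 13030, and here the GapmeR Ntep arrays were the higher ones without passing (log2 0.50, SE 0.22, limma adjusted p = 0.226). Myd88, the adaptor of most Toll-like receptors, gave 17430, 17900 and 17180 against 17030, 19270 and 15130 as the mean of 10 spots per array, with the GapmeR Ntep arrays inside the range of the control arrays and a log2 difference of 0.04 (SE 0.17, limma adjusted p = 0.909).

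The 7 genes that were lower on average were lower in each of the 3 experiments, and in 6 of them, all but Tmem173, experiment 1 had the largest difference. For Tlr3 the log2 differences were -5.24, -3.95 and -2.83 in experiments 1, 2 and 3. For Zbp1 they were -4.41, -2.98 and -2.95, for Ifih1 -2.96, -1.88 and -1.53, for Dhx58 -3.53, -2.66 and -2.41, and for Ddx58 -1.91, -0.72 and -1.02. Experiment 1 is also the one in which the Ntep probe went against its label (log2 0.80), and its part in these values was not tested. In the same experiment 9 of the 10 fibroblast markers were lower under GapmeR Ntep, with Col1a1 at -0.53 and Col3a1 at -1.15. In all 3 experiments 8 of the 10 markers were lower, these included. Vim (0.07, -0.24 and -0.20 in experiments 1, 2 and 3) and Thy1 (-0.03, 0.35 and -0.16) changed side. Whether the labels of experiment 1 are right was not tested. Without GapmeR Ntep replicate 1, limma called Ifih1, Tlr3 and Zbp1 after adjustment, and 5 genes at the fold change rule.

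**Figure D2:**
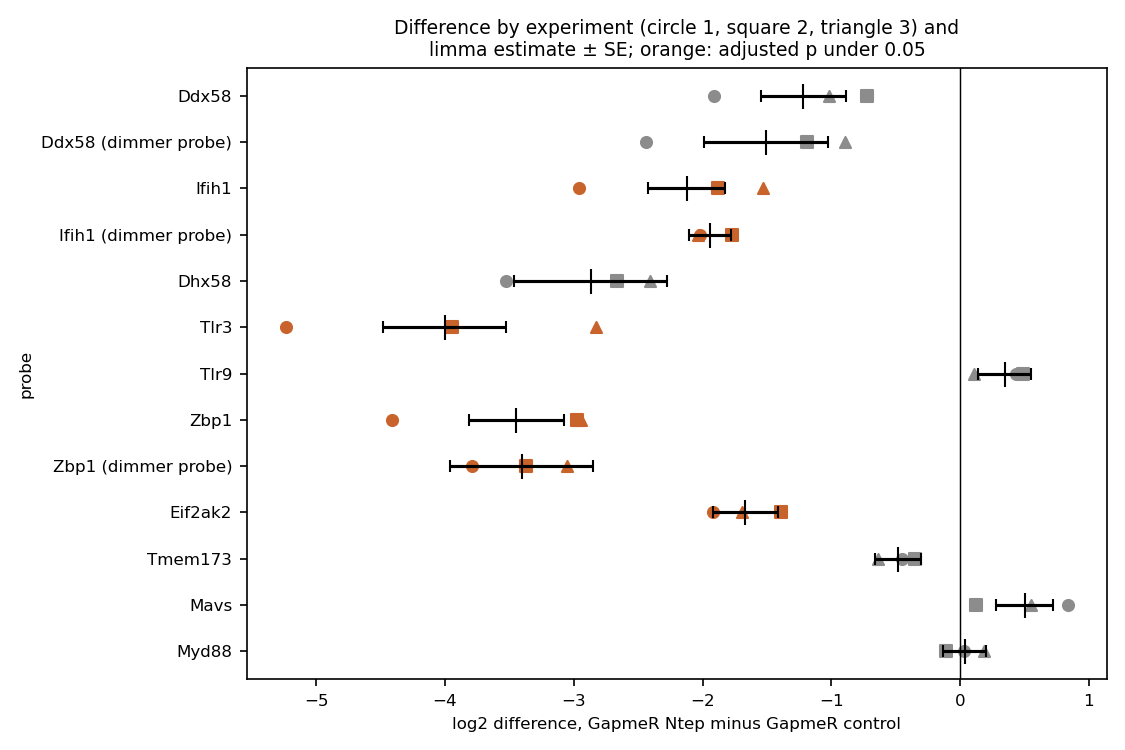
Log2 difference between the 2 arrays of each experiment (circle, square and triangle for experiments 1, 2 and 3) for all 13 probes, with the limma estimate ± SE as a black bar and orange for an adjusted p under 0.05. The dimmer Ifih1 probe is at the floor of 20 on every GapmeR Ntep array, so the size of its fall is not measured. The limma estimate of this probe was -1.943 here, -2.865 with a floor of 5 and -0.737 with the normexp background correction. The points of Tlr3 and of the brighter Zbp1 probe in experiment 1 lie at -5.24 and -4.41.

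Genes around these sensors and adaptors were taken from lists of the pathway (69 genes listed, 66 on the array and 62 tested), each by its brightest probe. Values in parentheses below are log2 differences followed by limma adjusted p. After adjustment 10 of the 62 were lower and 2 higher, at a median log2 difference of -0.23, and by the fold change rule 12 were lower and 2 higher. Over all tested probes 3.25% were lower and 2.1% higher after adjustment, and 5.06% and 3.08% by the fold change rule. The lists, too, were chosen with earlier results of these data known. With the experiments as blocks the adjusted counts were 14 lower and 4 higher, where that fit called 7.31% of all tested probes lower and 6.57% higher. When any probe could stand for a gene, 12 were lower and 2 higher. Without GapmeR control replicate 1, 2 or 3, or without GapmeR Ntep replicate 3, limma called 0 of the 62 in either direction after adjustment. In these fits 19, 18, 18 and 19 were lower and 9, 5, 7 and 6 higher at an unadjusted p under 0.05. Over all tested probes 13.3%, 8.94%, 9.54% and 10% were lower and 14.6%, 7.48%, 7.44% and 9.67% higher by that limit.

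Of 13 other RNA and DNA sensors tested, 2 fell and 1 rose after adjustment, at a median of 0.20. Tlr7, the receptor for single-stranded RNA, gave 186, 136.5 and 122.4 against 557.9, 460 and 564.4 and fell 3.6-fold (log2 -1.85, limma adjusted p = 0.0243). Ddx60, a helicase that promotes RIG-I signaling, gave 20, 40.25 and 96.96 against 293.2, 516 and 426.3 (log2 -3.23, adjusted p = 0.0392), with 2 of 3 GapmeR Ntep arrays well above background. Polr3a, the largest subunit of RNA polymerase III, which copies AT-rich DNA into RNA that RIG-I can bind, rose by 0.84 on the log2 scale (adjusted p = 0.0430). The 3 brightest genes of the list that did not pass were Mb21d1 (cGAS, log2 0.27), Dhx33 (0.24) and Lrrfip1 (0.20), with adjusted p of 0.441, 0.616 and 0.722. A dimmer Lrrfip1 probe, well above background on all arrays, fell (-1.29, 0.0250), so the probes of this gene disagree.

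Among 11 cofactors and regulators of the sensors, limma called 1 gene higher and 0 lower after adjustment, with 3 higher and 3 lower at an unadjusted p under 0.05. The one called was Tollip, an inhibitor of Toll-like receptor signaling (log2 1.30, adjusted p = 0.0294). By the fold change rule Adar, the editor of double-stranded RNA (log2 -1.62, adjusted p = 0.0510, with blocks 0.0413), and Trex1, the cytosolic DNA exonuclease (-1.14, 0.0705, with blocks 0.0468), fell. A dimmer Adar probe, well above background on all arrays, differed by 0.07 (adjusted p = 0.845), so the probes of Adar disagree. By the same rule Cd14, a co-receptor that hands ligands to Toll-like receptors, rose (1.12, 0.0626, with blocks 0.0332). The brightest genes that passed neither rule were Hmgb1 (0.16), Trim25 (-0.58), the ubiquitin ligase of RIG-I, and Samhd1 (-0.79), the dNTPase, with limma adjusted p of 0.538, 0.206 and 0.0533.

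Downstream of the adaptors, 1 of 15 adaptors and kinases fell after adjustment. Azi2, a subunit that recruits Tbk1, gave 732.4, 883.4 and 901 against 1758, 1910 and 1613 (log2 -1.07, limma adjusted p = 0.0335). The brightest others were Chuk (-0.19, adjusted p = 0.630), Map3k7 (0.05, 0.949) and Traf3 (0.29, 0.448). Irak1, named after its values were seen, passed only with blocks (-1.17, 0.0930, with blocks 0.0465).

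Of 6 transcription factors, Irf3 and Irf5 fell after adjustment. Irf3, which TBK1 phosphorylates to start interferon transcription, gave 19930, 22340 and 18610 against 35210, 36650 and 36180, a log2 difference of -0.83 (limma adjusted p = 0.0428). Irf5, which acts below Myd88, gave 517.9, 1273 and 1257 against 5044, 5221 and 2953 (log2 -2.18, adjusted p = 0.0472), and with blocks its adjusted p was 0.0509. Irf7, the interferon-induced factor that amplifies the response, gave 318.8, 2344 and 1782 against 3370, 7193 and 6592. The groups were apart, and experiment 1 was the lowest in both. Its log2 difference of -2.30 (SE 0.80, adjusted p = 0.145) passed only with blocks (adjusted p = 0.0441). Irf1 (-0.84, adjusted p = 0.0835) and Rela (0.29, 0.512) did not pass. A much dimmer Irf1 probe, well above background on 2 of 3 control arrays and 0 of 3 GapmeR Ntep arrays, fell after adjustment (-2.13, 0.0472). It was at the floor of 20 on every GapmeR Ntep array, so that group has no measured spread. Set against the dimmest signals still well above background, it was at least 1.78-fold lower, which was not tested.

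Of the partners of Zbp1 in cell death and the substrate of Eif2ak2, 6 genes in all, limma called 0 after adjustment and 0 by the fold change rule, with 1 lower and 1 higher at an unadjusted p under 0.05. Ripk3, the kinase that Zbp1 engages, differed by -0.29 (adjusted p = 0.524) and Mlkl, the membrane-rupturing target of Ripk3, by -0.27 (0.612). Eif2s1, the eIF2α subunit, gave 52540, 62250 and 58540 against 96340, 83620 and 97300 (log2 -0.68, adjusted p = 0.0710), with the groups apart. Ripk1, named after its values were seen, was higher on each GapmeR Ntep array than on any control array (log2 0.96, adjusted p = 0.0712, with blocks 0.0349).

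The interferon ligands themselves, which the sensors induce, held the largest count of falls among these lists. Of 11 tested, 5 fell after adjustment and 6 by the fold change rule, at a median of -1.58. Ifnb1 gave 477.3, 1052 and 857 on the GapmeR Ntep arrays against 6033, 4423 and 2844 on the control arrays, a fall of 5.61-fold (log2 -2.49, SE 0.40, limma adjusted p = 0.0335). Ifna4 gave 33.36, 147 and 91.2 against 2071, 1405 and 847.2 (log2 -4.14, SE 0.61, adjusted p = 0.0291), and only 1 of 3 GapmeR Ntep arrays was well above background. Ifna13 (-2.35, adjusted p = 0.0364), Ifna12 (-2.18, 0.0473), Ifna5 (-2.05, 0.0329) and, by the fold change rule, Ifna2 (-1.58, 0.0625, with blocks 0.0321) were lower too. Of the 3 GapmeR Ntep arrays, 1 was well above background for Ifna12, 2 for Ifna13 and for Ifna2, and 3 for Ifna5. The Ifna genes are close copies of one another, so that probes may share signal and the single calls are uncertain. A dimmer Ifna12 probe differed by 0.37 (adjusted p = 0.572), on the other side of 0. Ifna1 (-0.68, adjusted p = 0.236), Ifna14 (-0.55, 0.253) and Il28b (0.24, 0.514) did not pass.

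**Figure D3:**
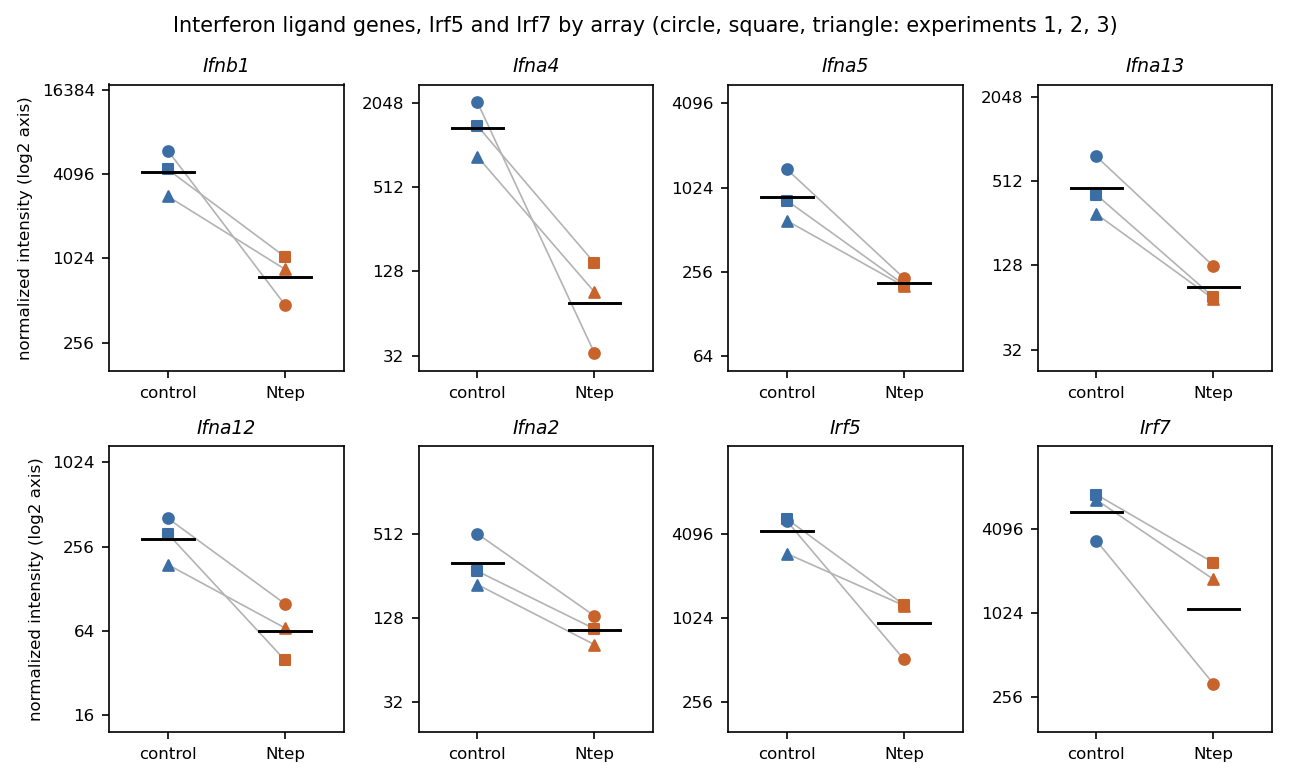
Normalized intensity by array (log2 axis of equal span in each panel) of the 6 interferon ligand genes that fell by the fold change rule and of Irf5 and Irf7, in the symbols and colors of the plot of the sensors by array. GapmeR Ntep and control arrays are apart in all 8 panels. Among GapmeR Ntep arrays, that of experiment 1 was the lowest for Ifnb1, Ifna4, Irf5 and Irf7. It was the highest for Ifna13, Ifna12, Ifna5 and Ifna2.

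**Figure D4:**
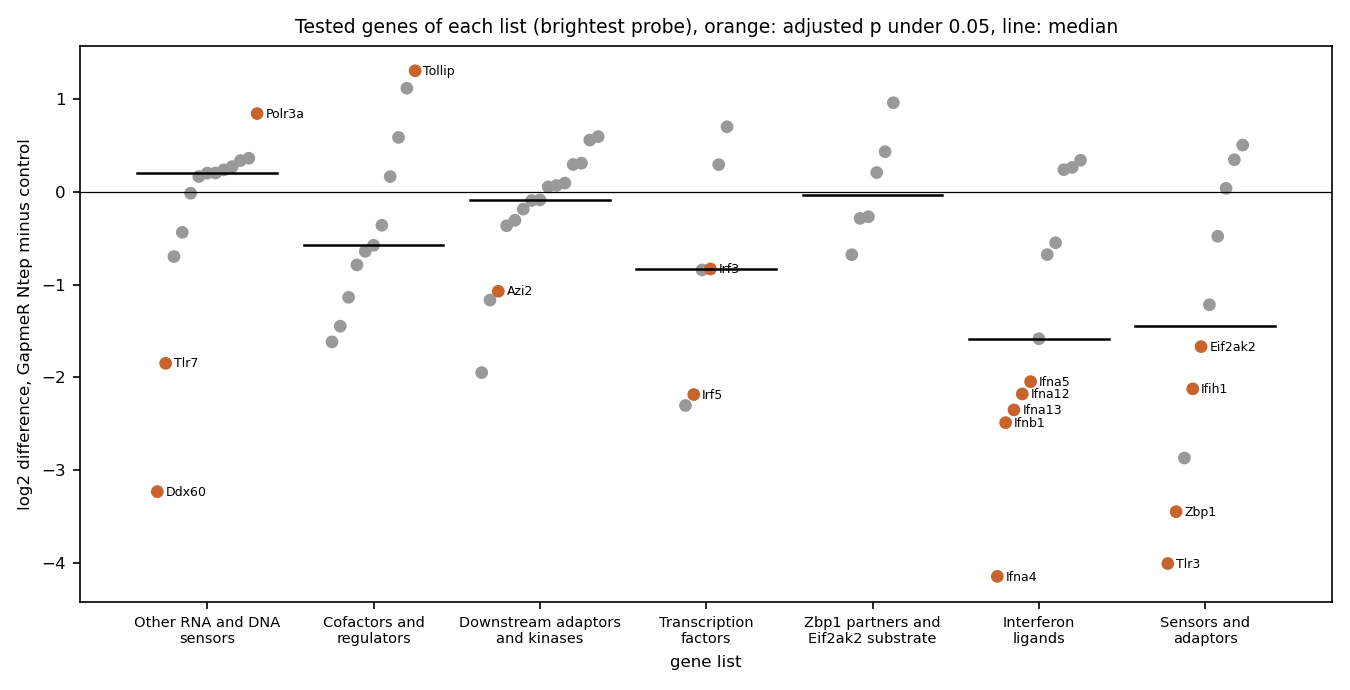
Log2 difference of every tested gene by its brightest probe, in columns for the 6 pathway lists and, at the right, the 10 sensors and adaptors. Black lines mark the median of each list, and orange points with gene names mark an adjusted p under 0.05. The medians were -1.58 for interferon ligands and -1.44 for the sensors and adaptors, and 0.20 for other RNA and DNA sensors.

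The arrays measure RNA of a whole culture, so fewer cells that carry a transcript and less of it per cell cannot be told apart, for any of these genes. Fibroblast markers were lower under GapmeR Ntep in 9 of 10 genes, at a median of -0.59, and their summed signal was 479812 to 629584 against 707731 to 778852. Of these, Fbn1 fell after adjustment (log2 -0.88, limma adjusted p = 0.0437). The summed signal of 8 macrophage markers went the other way, from 15490 to 21185 on control arrays up to 32989 to 62656 on GapmeR Ntep arrays, and Itgam alone made up 58.8% to 74.3% of it. Of this list Cd68 rose (log2 1.22, limma adjusted p = 0.0288), and Itgam (1.26, 0.0881, with blocks 0.0398) and Csf1r (3.18, 0.150, with blocks 0.0386) passed with blocks. Dimmer tested probes of these genes did not pass in either fit. They differed by -0.03 for Itgam (limma adjusted p with blocks 0.937), 0.44 for Csf1r (0.110) and 0.68 for Cd68 (0.118). In this list 4 of the 8 genes were not well above background on any array. The part of these shifts in the values above was not tested.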

How the data were processed

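The authors deposited background-subtracted intensities per array (Agilent Feature Extraction 10.7.3.1, per the file headers), not normalized between arrays, and a table of quantile normalized intensities. Here spots of a probe were averaged, arrays quantile normalized, values under 20 set to 20 and log2 values fitted in limma (version 3.58.1, R 4.3.3), unpaired and two-sided. The test took in probes whose mean reached 50 in either group. Signals are linear normalized intensities, and a gene's brightest probe stands for it. The number of arrays, 3 per label, limits the precision, and an exact permutation test could not fall below 0.1. The study's sample sheet ties arrays to experiments, and the experiments were taken to pair the arrays. Residuals from the group means correlated at 0.466, 0.300 and 0.254 for arrays of 1 experiment, and between experiments at -0.327 to 0.126. Residuals cancel within a group, so a positive value within an experiment pushes those between experiments down. These values are therefore not independent of one another. Other normalizations, floors, filters, tests, blocks and omissions were run. The steps were tested on simulated data. Named are all 10 genes, those of each pathway list that passed either rule and at most 3 others, the brightest, with exceptions stated. Members and lists were chosen with earlier results of these data known. Probe sequences come from the array files and promoters from RefSeq. Some marker values are not reported here.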

Additional observations from a re-analysis of the deposited data

How the results depend on the processing

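Of the 10 genes, 4 were called lower after adjustment and 5 by the fold change rule, and of the other pathway genes 10 were called lower and 2 higher. The 4 called genes were the same with 75th percentile scaling, without normalization between arrays, with the authors' normalized values and with a floor of 5. For these 10 genes the adjusted count was 0 without a filter on dim probes and by the methods' t-test, and 7 with array weights. Without the filter and by the t-test, 7 were lower at an unadjusted p under 0.05, against 7.22% and 10.9% of all tested probes. In both, 4 passed the fold change rule, whose share over all probes in these fits is not given here. Array weights called 10318 of 30932 tested probes in either direction. Of the other pathway genes, 6 were lower without normalization between arrays, 16 with a mean of at least 200, with probes well above background on all arrays of a group, and with trend and robust fitting, 25 with array weights, 4 without a filter and 2 by the methods' t-test. Higher ones numbered 1 with 75th percentile scaling, without normalization and without a filter, 4 with the mean of 200, the background rule, trend and the replicate block, 10 with array weights and 0 by the t-test. The replicate block called 5 of the 10 genes after adjustment and 5 by the fold change rule, and 14 other pathway genes lower. After adjustment it called 7.31% of all tested probes lower. Leaving out 1 array gave 0 to 5 and 4 to 6 of the 10 genes, and 0 to 3 lower and 0 to 1 higher pathway genes. For the 13 probes, 187 of 233 recomputed differences kept their side of the threshold and direction, 34 lost the call and 11 gained it. Myd88 changed direction without GapmeR control replicate 3, and its log2 difference lay between -0.051 and 0.126 with 1 array left out. Over all tested probes, array weights called 10318 and the replicate block 4295 in place of 1655, the methods' t-test 289, no filter 562 and a mean of 200 2652. Of calls, 39.3% were higher, and 40.0% with 75th percentile scaling, which moved the median of all probes to 0.22. Tlr3 fell 16-fold, but 4.86-fold with normexp and an offset of 50. The floor of 20 limited how large a fall could be measured for the dimmer Ifih1 and Irf1 probes on all GapmeR Ntep arrays and for Ddx60 on 1 of them. Tlr3, Ifna4 and Ifna12 were well above background on 1 of 3 GapmeR Ntep arrays. Array weights also called Tmem173 lower (adjusted p = 0.0172) and gave Mavs, higher, 0.0454. The causes were not tested.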
